A study of Mus musculus with 4 samples.

Results

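Plasma holds a set of proteins that trap or block proteases, most of them made by hepatocytes. This account describes 6 genes of such proteins and their relatives in mouse liver. They are A2m, which encodes alpha-2-macroglobulin, and the clade A serpin genes Serpina3n, Serpina3b, Serpina7, Serpina1b and Serpina1d. Serpina7 is included as a clade A serpin, although its protein inhibits no protease. Members were the array probes annotated to 1 of these genes and to no other gene. They comprised 7 probes of 15478, or 6 genes of 9285 named genes, with 2 probes for Serpina1b and 1 for each of the others. The genes were chosen by their log2 ratios in these same 4 columns, in part because A2m, Serpina3b and Serpina7 go opposite ways between lines. Their ratios below are therefore a description, and no test was made of them.

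The study compared livers of 4 mutant mouse lines with livers of wild-type (Trsp) littermates on 2-colour arrays. Trsp is the gene for the selenocysteine tRNA, which brings selenocysteine into selenoproteins. In DTrsp mice the liver had no Trsp. The other lines carried transgenes for that tRNA. A34 had 2 copies with a T34-to-A34 change, G37H had 16 copies with an A37-to-G37 change, and G37L had 2 copies with the same change as G37H. All animals were males of mixed B6/FVB background, 7 to 8 weeks of age, fed a diet sufficient in selenium. The sources used here do not state how Trsp was removed from the liver, nor whether the transgenic animals kept an intact Trsp gene. No probe was named Trsp, so the targeted gene was not checked. The liver identity of the samples could not be checked by level, since the values are ratios, but all 10 hepatocyte markers examined had one.

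Each line has 1 deposited value per probe, labelled as the average over 3 animals in G37H and 4 in each of the other lines. The decimals described below show that not every value is a mean over that many arrays. The values were read as log2 ratios of mutant liver (Cy5 dye) to wild-type liver (Cy3 dye), so that 1 is 2-fold higher and -1 is 2-fold lower in the mutant. That direction rests on the dye labels alone. Each title puts Trsp before the mutant, which could also be read as the opposite ratio, and a turned ratio would change every sign below. The logarithm's base was not stated in the sources used here. The spread between animals is not in the values, so no error or p-value can be attached to them, and the number of arrays limits their precision. The median over all genes was 0.16 in DTrsp, 0.07 in A34, -0.11 in G37H and -0.11 in G37L. The columns correlated across the 15478 probes with Pearson's r between 0.03 and 0.47, as a description across probes, so none ran against another.

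A measure of technical spread comes from genes with 2 probes. Over 1791 such genes the probes differed by a median of 0.43 in DTrsp, 0.29 in A34, 0.30 in G37H and 0.31 in G37L on the log2 scale. In 1 gene of 10 the difference was above 1.17, 0.77, 0.87 and 0.87 in those lines. This spread concerns probes, and it says nothing of the animals. A2m, Serpina3n, Serpina3b, Serpina7 and Serpina1d had 1 probe each, so their values have no such check.

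Serpins are single-chain proteins that offer a reactive loop as bait. A protease that cuts the loop is carried along as the serpin refolds, and both end in a locked complex. Alpha-2-macroglobulin works differently, by closing around many kinds of protease after its bait region is cut. Mouse Serpina1 genes encode forms of alpha-1-antitrypsin, the inhibitor of neutrophil elastase, and occur as several near-identical copies. Serpina3 genes are relatives of human alpha-1-antichymotrypsin that have multiplied in rodents. Serpina7 encodes thyroxine-binding globulin, a serpin that carries thyroid hormone and inhibits no protease.

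In DTrsp, 1 of the 6 genes was higher and 2 were lower by 2-fold or more, where 3.27% of all 9285 genes were higher and 1.62% lower by that much. In A34, 1 was higher and 1 lower, against 1.4% and 0.452% of all genes. In G37H, 2 were higher and 1 lower, against 2.78% and 3.1%. In G37L, 3 were higher and 0 lower, against 2.51% and 3.96%. The genes were picked for these values, so nothing is read from these counts. Their median was 0.24 in DTrsp, 0.42 in A34, 0.72 in G37H and 1.28 in G37L. No line moved all 6 the same way at that size.

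**Figure D1:**
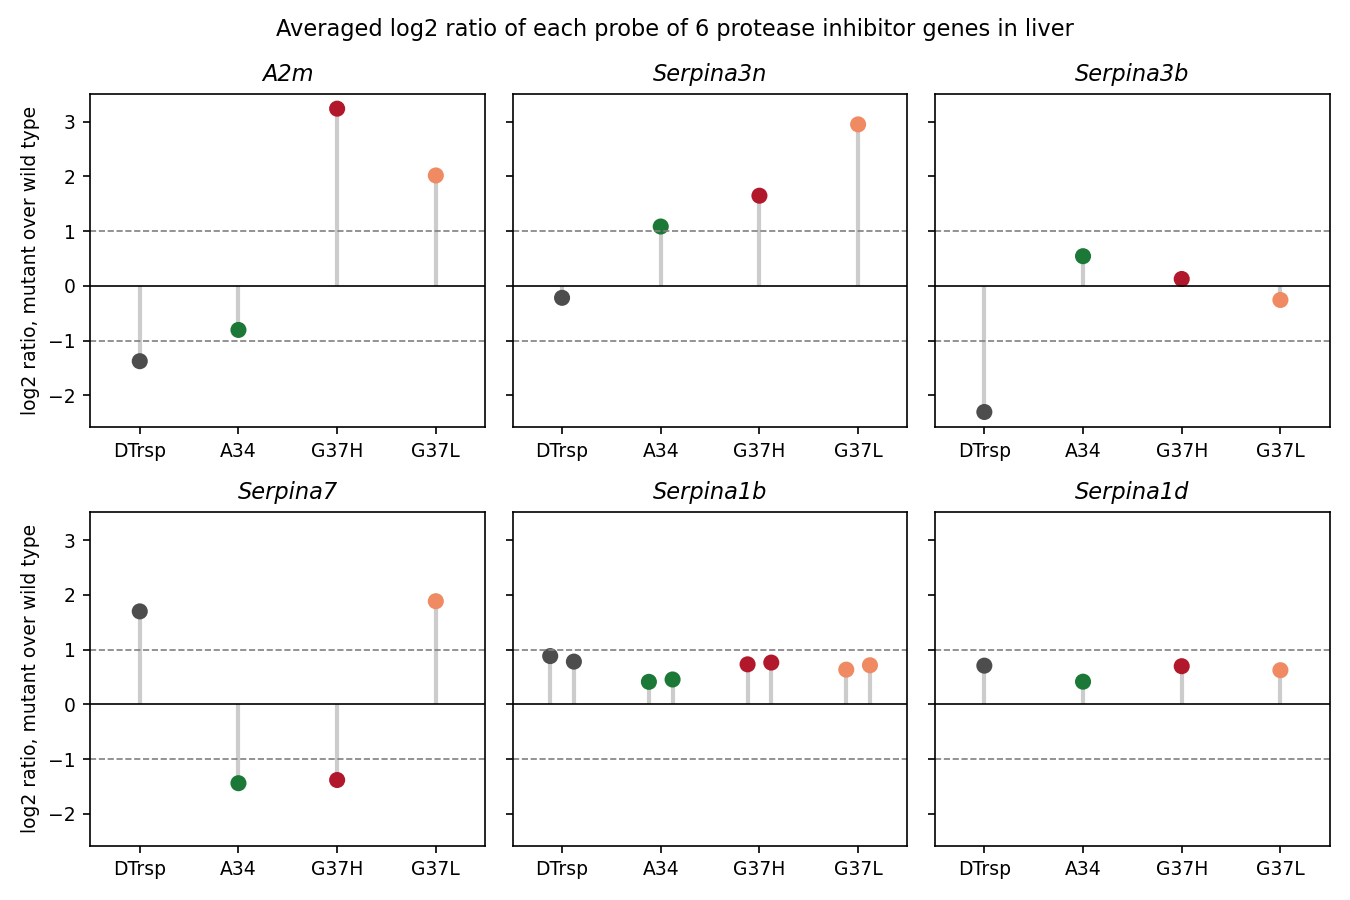
Log2 ratio of mutant over wild type (vertical axis) for each probe of the 6 genes in the 4 lines (horizontal axis). Each point is the deposited value, labelled as an average over animals, and dashed lines mark 2-fold. A value with no fraction in its decimals may rest on 1 array. A2m runs from -1.38 in DTrsp to 3.24 in G37H, Serpina7 changes sign between lines, and Serpina1b and Serpina1d lie between 0.41 and 0.88 in every line.

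A2m had the widest span of the 6. Its log2 ratio was -1.38 in DTrsp, -0.80 in A34, 3.24 in G37H and 2.02 in G37L. It was thus 2.59-fold lower in DTrsp and 1.75-fold lower in A34, while it was 9.42-fold higher in G37H and 4.04-fold higher in G37L. In G37H it was number 4 from the top of 9285 genes, and in DTrsp number 33 from the bottom. The distance between its highest and lowest line was 4.61, number 3 in width of all genes, where the median gene spanned 0.77. Only 4 genes of 9285 were at least 2-fold lower in DTrsp and at least 2-fold higher in both G37H and G37L, and A2m is 1 of them. Centred on the 10 hepatocyte markers, whose medians lay between 0.33 and 0.66, A2m was at -2.0, -1.13, 2.79 and 1.35 in DTrsp, A34, G37H and G37L.

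The other alpha-macroglobulin genes on the array did not share the pattern of A2m. Pzp, another alpha-macroglobulin gene, was at 0.52 in DTrsp, 0.39 in A34, -0.38 in G37H and -0.64 in G37L. Its sign was opposite to that of A2m in each line. The murinoglobulin genes Mug1 and Mug2, single-chain relatives, averaged -0.28 and -0.60 in DTrsp and 1.10 and 1.07 in A34, with values between -0.45 and 0.27 in G37H and G37L. Those averages hide a split between probes. Of the 3 Mug1 probes, 1 was at -1.21 in DTrsp and 2.30 in A34, while the other two lay at 0.14 and 0.23 in DTrsp and at 0.47 and 0.53 in A34. Of the 4 Mug2 probes, 2 were at -1.29 and -1.38 in DTrsp and at 2.06 and 1.40 in A34, and the other two at 0.11 and 0.17 in DTrsp and at 0.54 and 0.27 in A34. Mug1 and Mug2 are close in sequence, so a probe may read both.

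**Figure D2:**
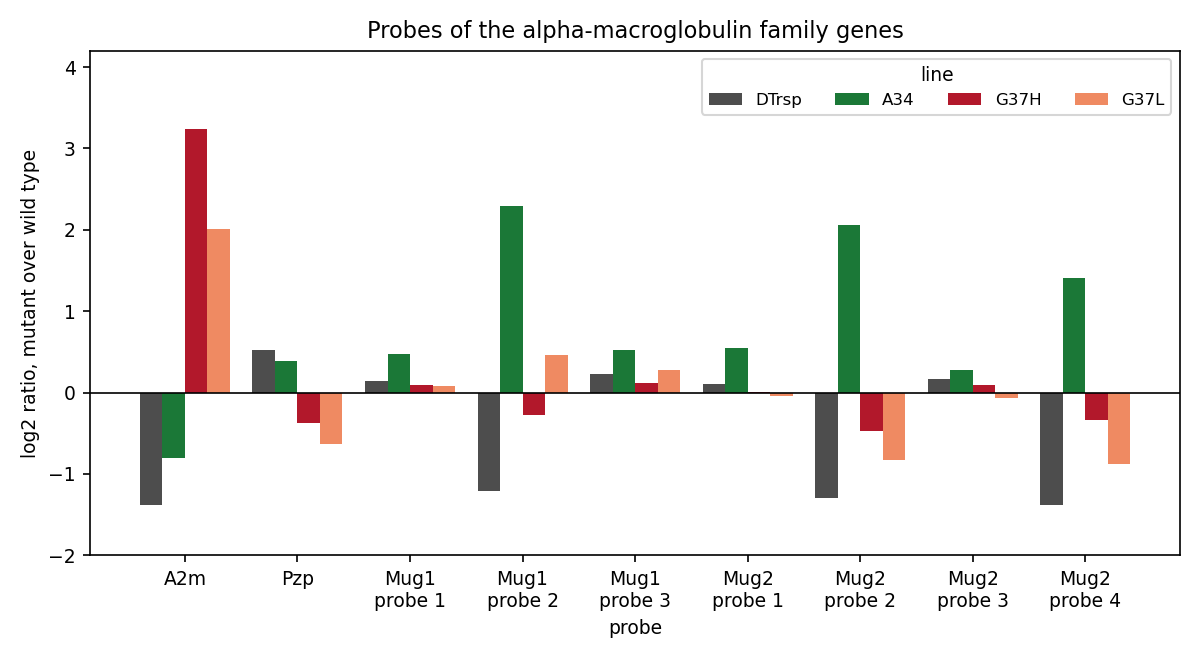
Log2 ratio of mutant over wild type (vertical axis) for each probe of A2m, Pzp, Mug1 and Mug2 (horizontal axis), with 1 bar per line. A2m is the gene with long bars upward in G37H (3.24) and G37L (2.02), and 3 of the 7 murinoglobulin probes stand apart with values of 1.40 to 2.30 in A34.

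Serpina3n, the gene of the Serpina3 group best known as an acute phase gene of mouse liver, was under 2-fold from wild type in DTrsp and at least 2-fold higher in the 3 transgenic lines. Its log2 ratio was -0.22 in DTrsp, 1.08 in A34, 1.65 in G37H and 2.95 in G37L. That is 2.12-fold, 3.13-fold and 7.72-fold higher in A34, G37H and G37L. It was number 14 from the top in G37L and number 36 in G37H. At least 2-fold higher in all 3 transgenic lines were 15 genes of 9285. The order of its levels was DTrsp, A34, G37H, G37L from low to high. Whether the steps between them exceed the spread between animals was not tested. Centred on hepatocyte markers, the A34 value was 0.76 and no longer reached 2-fold, and the DTrsp value was -0.84.

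Serpina3b, which lies in the same gene cluster as Serpina3n, had another pattern. Its log2 ratio was -2.30 in DTrsp, 0.54 in A34, 0.13 in G37H and -0.26 in G37L. It was 4.94-fold lower in DTrsp, number 6 from the bottom of all genes, and less than 2-fold from wild type in the transgenic lines. In this it was 1 of 101 genes, 1.09% of all, that were at least 2-fold lower in DTrsp and under 2-fold apart in A34, G37H and G37L. Centred on hepatocyte markers its G37H value changed sign, to -0.32, so the sign of that small value depends on the centring.

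Both Serpina3 genes have a promoter entry in the RefSeq table of mouse build GRCm38.p6. Their stretches are shown because the genes are alike upstream and yet differed in ratio. In a global alignment of the 250 bases before the start used in that table, 180 of 261 columns were identical (69.0%), where the 8 member pairs from different serpin groups reached 45.5% to 48.9%. The start in the table lies downstream of the outermost annotated start of both genes, so the stretches printed here end before the end of the aligned windows. The 120 bases just before the outermost annotated start, given 5′ to 3′ on the gene's strand, were chr12:104406526-104406645 (plus strand) for Serpina3n and chr12:104127866-104127985 (plus strand) for Serpina3b. Capitals mark matches on either strand to TATAAA, to CCAAT, to the HNF1 half-site GTTAAT or to the STAT motif TTCNNNGAA.
Serpina3n: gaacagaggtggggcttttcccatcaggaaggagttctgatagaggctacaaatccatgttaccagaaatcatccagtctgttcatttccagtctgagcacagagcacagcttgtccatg
Serpina3b: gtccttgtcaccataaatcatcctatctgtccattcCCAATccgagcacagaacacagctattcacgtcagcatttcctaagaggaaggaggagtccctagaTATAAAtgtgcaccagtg
The Serpina3b stretch holds a CCAAT and a TATAAA match, and the 250-base window of Serpina3n holds none of the 4 motifs. Among 32851 windows of 250 bases in the table, 33.8% held CCAAT, 12.4% TATAAA, 7.02% the STAT motif and 6.43% GTTAAT. A match is a run of letters and does not show that a factor binds.

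Serpina7 took opposite signs between the transgenic lines that share a mutation (G37H and G37L) and between those that share a copy number (A34 and G37L). Its log2 ratio was 1.70 in DTrsp, -1.44 in A34, -1.38 in G37H and 1.88 in G37L. It was 3.24-fold higher in DTrsp and 3.69-fold higher in G37L, and 2.71-fold lower in A34 and 2.61-fold lower in G37H. It was the only gene of 9285 with that combination at 2-fold, while 421 genes (4.53%) had the same 4 signs at any size. It was also 1 of 10 genes at least 2-fold apart from wild type in all 4 lines. The signs and the 2-fold side held with columns centred on their medians or on hepatocyte markers.

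The decimals of the Serpina7 values bear on how many arrays they rest on. Averages over 4 arrays leave multiples of the last of 4 decimals divided by 4 or 2, or no fraction, and averages over 3 leave that decimal divided by 3 or no fraction. Serpina7 had no fraction in any of the 4 columns. A value with no fraction may come from 1 array or, by chance, from an average over several. By chance about 1 in 4 averages over 4 arrays, and 1 in 3 averages over 3, would have none. No fraction was found for 29.8% of probes in DTrsp, 30.7% in A34, 43.5% in G37H and 37.8% in G37L, and in all 4 columns for 361 probes (2.33%). Of those 361, Serpina7 was the only one at least 2-fold apart in all 4 columns. Among probes with no fraction, 6.76%, 3.41%, 8.67% and 9.74% were at least 2-fold apart in DTrsp, A34, G37H and G37L. Among probes whose decimals show the most arrays, these shares were 5.64%, 2.32%, 2.41% and 5.03%. Decimals divided by 3, which averages over 4 arrays do not leave, also occurred in lines with 4 animals. They made up 14.0% of probes in DTrsp, 13.5% in A34 and 5.77% in G37L. In G37H, decimals divided by 2, which averages over 3 arrays do not leave, made up 14.4% of probes. Of those, 11.9% were at least 2-fold apart. The part of array number in the Serpina7 values was not tested.

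The A2m and Serpina3b values likewise had no fraction in DTrsp, A34 and G37H, and their G37L values were multiples of the last decimal divided by 2. Serpina3n differed, with decimals that show 4 arrays in DTrsp and 3 in G37H and a value with no fraction in G37L. Serpina1b, by both probes, had decimals of 4 arrays in A34 and of 3 in G37H.

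The promoter of Serpina7 is shown because the gene alone carried its sign pattern at 2-fold. The stretch was chrX:139085237-139085356 on the minus strand of GRCm38.p6.
Serpina7: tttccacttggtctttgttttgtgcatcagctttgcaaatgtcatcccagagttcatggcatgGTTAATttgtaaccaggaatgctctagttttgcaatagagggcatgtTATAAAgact
It holds 1 GTTAAT match and 1 TATAAA match.

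Other genes of thyroid hormone action gave no common direction beside Serpina7. Of 8 measured, 1 was at least 2-fold higher and 1 lower in DTrsp, 0 and 0 in A34 and in G37H, and 0 and 1 in G37L. Over all genes the shares higher were 3.27%, 1.4%, 2.78% and 2.51% in DTrsp, A34, G37H and G37L. The shares lower were 1.62%, 0.452%, 3.1% and 3.96%. Medians of the 8 genes were 0.21, -0.03, -0.39 and -0.16 in the same lines, against 0.16, 0.07, -0.11 and -0.11 over all genes. The thyroid hormone transporter Slc16a10 was the lower one in DTrsp, at -1.01. The malic enzyme Me1 was at 1.65, -0.97, -0.27 and -0.76, and Thrsp at 0.43, -0.33, -0.87 and -1.16. Both shared the signs of Serpina7 in DTrsp, A34 and G37H, and had the opposite sign in G37L. The selenoprotein deiodinase Dio1 was at -0.67, 0.76, -0.51 and -0.15, opposite to Serpina7 in 3 lines. Another plasma carrier of thyroxine, transthyretin (Ttr), was above 0 in all 4 lines, at 0.78, 0.42, 0.72 and 0.50. Serpina6, the serpin that carries glucocorticoids, was at 0.12, 0.44, -0.56 and -1.28.

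Serpina1b and Serpina1d stayed under 2-fold in every line and were close to each other. Serpina1b was at 0.83 in DTrsp, 0.43 in A34, 0.75 in G37H and 0.67 in G37L. Serpina1d was at 0.71, 0.41, 0.70 and 0.62 in the same lines. The probes of Serpina1b differed by 0.10, 0.04, 0.03 and 0.08, less than the median of genes with 2 probes in each line. Over the 4 lines Serpina1b spanned 0.40 and Serpina1d 0.29, against 0.77 for the median gene. Relative to hepatocyte markers they lay between -0.04 and 0.30 in all lines. They sat above the median of all genes, then, by about as much as the median of the 10 hepatocyte markers did. Those markers differed among themselves. They ran from -0.67 to 0.79 in DTrsp, -0.13 to 0.42 in A34, 0.12 to 0.72 in G37H and -0.03 to 1.51 in G37L.

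The Serpina1b and Serpina1d promoters are shown because these genes had nearly the same ratios. They were identical in 223 of 262 aligned columns (85.1%). The stretches were chr12:103738190-103738309 for Serpina1b and chr12:103773634-103773753 for Serpina1d, both on the minus strand of GRCm38.p6.
Serpina1b: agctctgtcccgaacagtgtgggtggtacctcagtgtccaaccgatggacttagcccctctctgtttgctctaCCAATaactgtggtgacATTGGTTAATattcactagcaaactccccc
Serpina1d: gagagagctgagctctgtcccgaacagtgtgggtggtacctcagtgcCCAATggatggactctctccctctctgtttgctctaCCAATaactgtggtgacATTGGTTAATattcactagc
Both hold GTTAAT overlapping a CCAAT match on the opposite strand (ATTGG), with a further CCAAT match upstream, and Serpina1d holds 1 more. With copies so alike, a probe annotated to 1 Serpina1 gene may read the others, so their values cannot be taken as independent.

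Serpina1a, another alpha-1-antitrypsin copy, had the same ratios, at 0.73 in DTrsp, 0.39 in A34, 0.74 in G37H and 0.63 in G37L. Serpina1e, a further copy, did not. It was at 0.81 in DTrsp, but at -0.39 in A34, -0.80 in G37H and -0.77 in G37L. The windows before the annotated starts of Serpina1e and the other copies are offset. In an alignment with free ends, chosen after the global one had been seen, its promoter was identical to that of Serpina1b in 97.0% of 200 overlapping columns and to that of Serpina1d in 95.8% of 189. For Serpina1a the same alignment gave 91.4% and 92.7%, and for Serpina1b against Serpina1d 92.5% of 241 columns. In the global alignment Serpina1e reached 64.2% with Serpina1b and 58.0% with Serpina1d. Serpina1e had 1 probe.

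**Figure D3:**
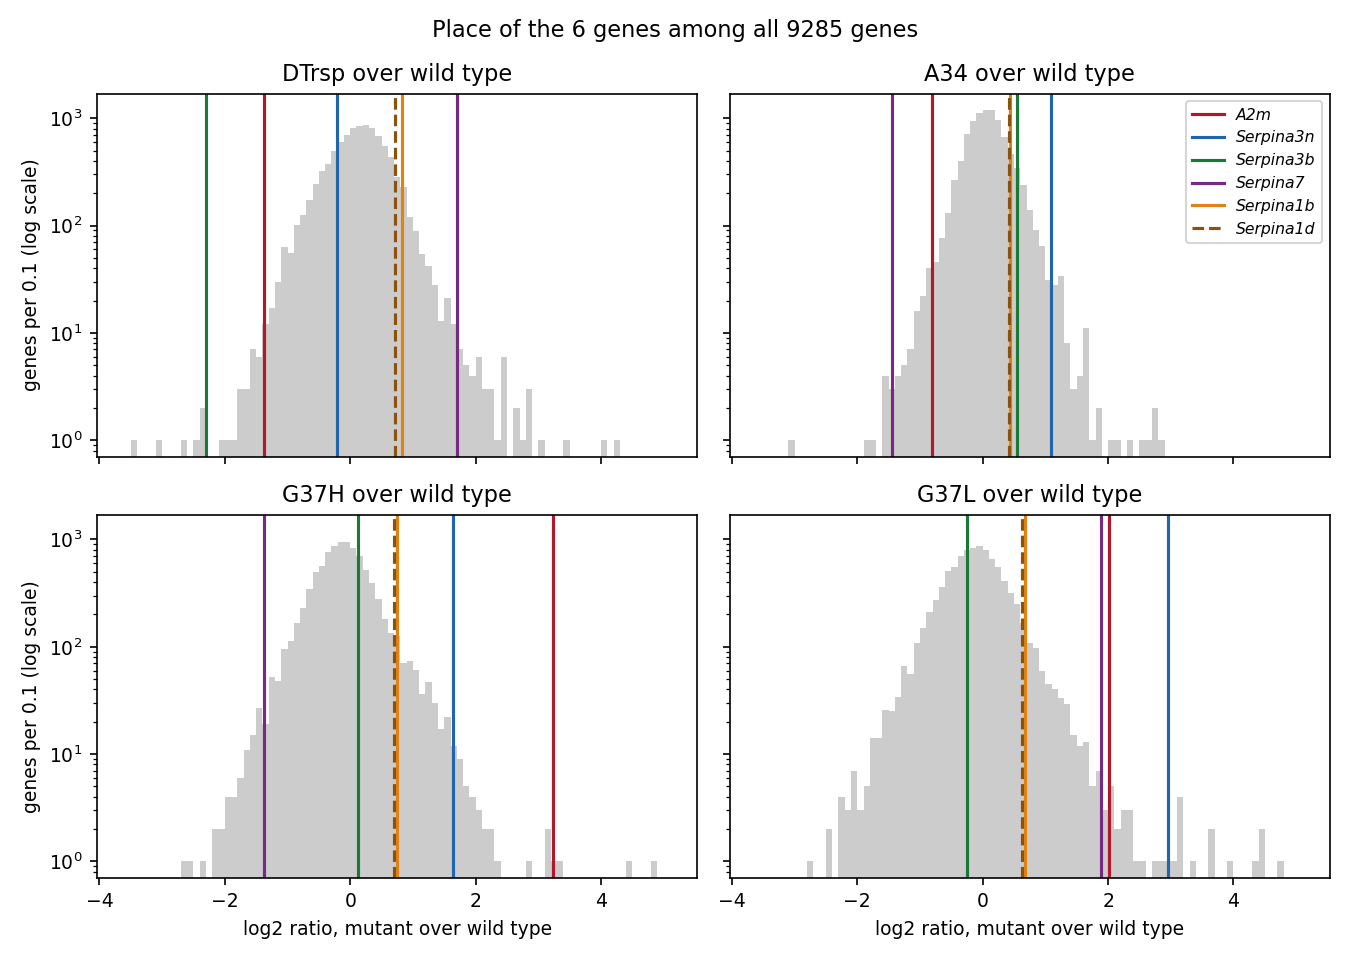
Distribution of log2 ratios over all 9285 genes in each line (grey; vertical axis, number of genes per 0.1 on a log scale) with the 6 genes as vertical lines. A2m and Serpina3n lie in the upper tail in G37H and G37L, Serpina3b in the lower tail in DTrsp, and Serpina7 in the upper tail in DTrsp and G37L and the lower tail in A34 and G37H.

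With 16 copies of the A37-to-G37 transgene against 2, Serpina7 was among the genes farthest apart. Its difference of G37H minus G37L was -3.26, or 9.61-fold lower, number 3 from the bottom of all genes. A2m was 2.33-fold higher in G37H than in G37L, with a difference of 1.22, and Serpina3n 2.47-fold lower, with a difference of -1.30. So 1 gene of 6 was at least 2-fold higher and 2 lower, where 4.07% of all genes were higher and 2.67% lower. Serpina3b differed by 0.38 and Serpina1b and Serpina1d by 0.07 each. A2m and Serpina3n, both high in the pair of lines, thus had their order reversed with copy number. The copies were carried by separate lines, so copy number and line cannot be told apart.

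Between A34 and G37L, the lines with 2 copies each, A2m and Serpina7 had opposite signs. Each mutation at that copy number was carried by 1 line, so mutation and line cannot be told apart. A34 minus G37L was -2.82 for A2m, -1.86 for Serpina3n and -3.32 for Serpina7, which is 7.06-fold and 3.64-fold lower in A34 for the first 2 of them. Of the 6 genes, 0 were at least 2-fold higher and 3 lower, where 7.07% of all genes were higher and 2.55% lower. Serpina3b was higher in A34 by 0.80, and the differences were -0.24 for Serpina1b and -0.21 for Serpina1d. Whether the lines were compared with the same wild-type animals was not stated in the sources used here.

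Of 22 other clade A serpin genes listed, 7 were measured. Genes at least 2-fold higher numbered 0 in DTrsp, 2 in A34, 1 in G37H and 2 in G37L, and genes at least 2-fold lower 0, 0, 1 and 1. Over all 9285 genes the shares higher were 3.27%, 1.4%, 2.78% and 2.51%. The shares lower were 1.62%, 0.452%, 3.1% and 3.96%. With 7 genes, nothing is read from the counts. The list medians were 0.32, 0.44, -0.49 and 0.35, against 0.16, 0.07, -0.11 and -0.11 over all genes. Serpina11 was at -0.34 in DTrsp, 0.85 in A34, 2.04 in G37H and 1.88 in G37L. Serpina10, the inhibitor that acts with protein Z on factor Xa, was at 1.99 in G37L and between 0.22 and 0.50 in the other lines. Serpina12 (vaspin) was at 1.65 in A34 and -1.58 in G37H, against 0.32 in DTrsp and 0.35 in G37L. Angiotensinogen (Agt), a serpin that is the source of angiotensin peptides, was at 1.16 in A34 and below 0 elsewhere.

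The genome order of the clade A genes did not sort them by ratio. Chromosome 12 carries 28 annotated Serpina genes in GRCm38.p6, of which 11 were measured, and Serpina7 lies on the X chromosome. In that order Serpina1b, Serpina1d and Serpina1a were numbers 5, 6 and 7 and had nearly the same values, with Serpina1e number 9 and of opposite sign in 3 lines. Serpina11 was number 10 and the pseudogene Serpina4-ps1 number 13, with Serpina4-ps1 chosen after its values were seen. Serpina4-ps1 was at -0.39 in DTrsp, 0.71 in A34, 1.94 in G37H and 1.32 in G37L. Both had the signs of Serpina3n, the last of the 28, in each line, while Serpina12, which lies between them, had other signs in DTrsp and G37H.

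**Figure D4:**
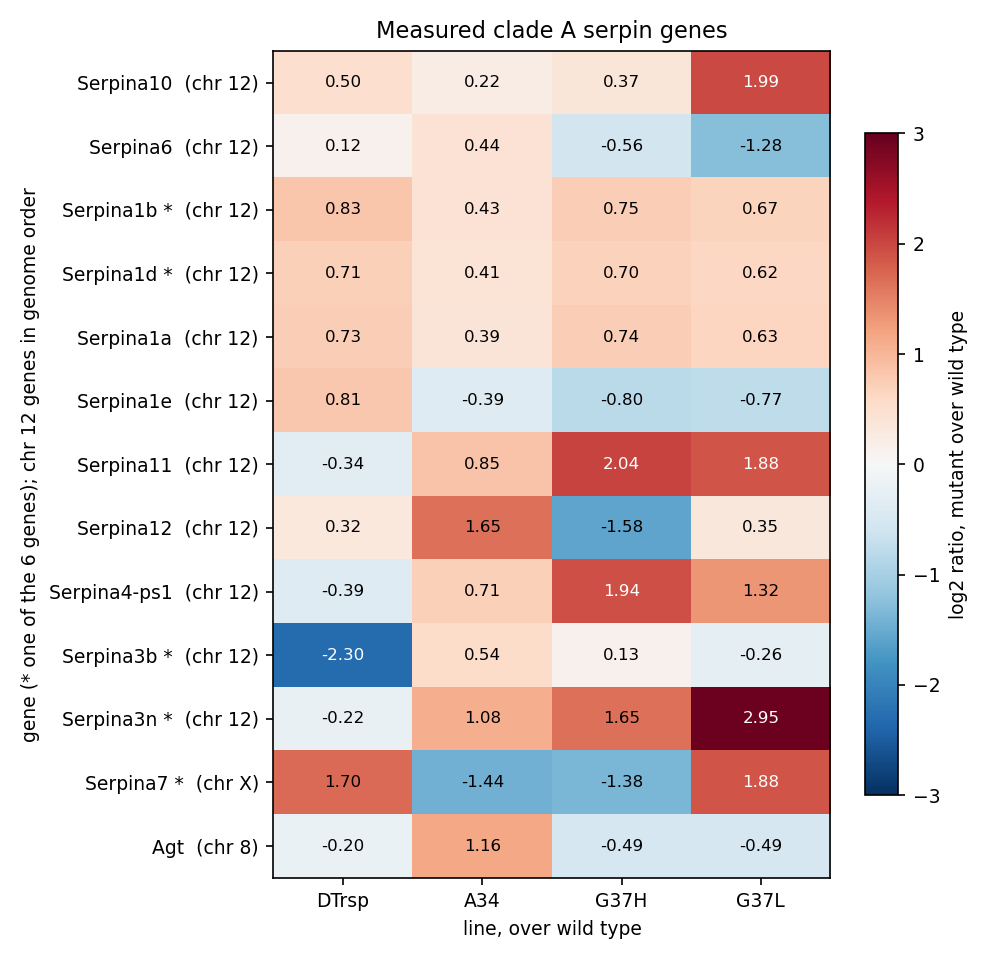
Log2 ratio of mutant over wild type (colour and printed value) for the 13 measured clade A serpin genes (rows, those of chromosome 12 in genome order) in the 4 lines (columns). Serpina11, Serpina4-ps1 and Serpina3n are above 0 in A34, G37H and G37L and slightly below 0 in DTrsp, and Serpina7 changes sign between lines.

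Of 23 listed serpins of other clades, 8 were measured. At least 2-fold higher were 1 in DTrsp, 2 in A34, 0 in G37H and 0 in G37L, and 0 were lower in each line. Over all genes the shares higher were 3.27%, 1.4%, 2.78% and 2.51%, and those lower 1.62%, 0.452%, 3.1% and 3.96%. Nothing is read from the counts of these lists. Antithrombin (Serpinc1) was at 0.87 in DTrsp, 0.45 in A34, 0.09 in G37H and -0.01 in G37L. Serpinf1, the gene of pigment epithelium-derived factor, was at 1.05, 0.55, 0.03 and -0.38. In A34 the genes at least 2-fold higher were Serpinb1a, an inhibitor of neutrophil proteases, at 1.61 and Serpinf2, the gene of alpha-2-antiplasmin, at 1.58 as the mean of 2 probes that disagreed, at 2.41 and 0.74. The collagen chaperone Serpinh1 was at 0.16, -0.23, 0.55 and 0.89. Of 22 measured macroglobulins and inhibitors of other families, 0, 3, 1 and 3 were at least 2-fold higher in DTrsp, A34, G37H and G37L. In each line 0 were lower. Over all genes 3.27%, 1.4%, 2.78% and 2.51% were higher. The genes higher in A34 were the leukocyte elastase inhibitor Slpi at 1.13, Mug1 at 1.10 and Mug2 at 1.07. The Mug1 and Mug2 means reached 2-fold only through the probes that stood apart, as described above. The genes higher in G37L were the coagulation inhibitor Tfpi at 1.36, the inter-alpha-trypsin inhibitor chain Itih4 at 1.34 and Slpi at 1.05. In G37H it was Spint1, an inhibitor of hepatocyte growth factor activator, at 1.21.

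The genes nearest to each member over the 4 lines were found by Euclidean distance among all 9285 genes. For A2m these were Il1r2 (distance 1.81), the decoy receptor of interleukin-1, Scara5 (2.02) and Btbd17 (2.05). A2m in G37H was higher than any of them by more than 1.6. For Serpina3n they were Ugt2b38 (0.87), the serum amyloid gene Saa3 (0.87) and Serpina11 (1.17). For Serpina3b they were the organic anion transporter Slco1a1 (0.82), the carotenoid oxygenase Bco2 (0.86) and Gna12 (0.87). For Serpina7 they were Igfbp1 (1.46), Dnajc12 (1.69) and Hspa13 (1.82). Igfbp1 was at 1.12 in DTrsp, -1.38 in A34, -0.85 in G37H and 0.65 in G37L, the same signs as Serpina7. For Serpina1b the nearest gene was albumin (Alb) at a distance of 0.05, then Rps29 and Serpina1a at 0.11 each. For Serpina1d they were Serpina1a (0.06), Alb (0.10) and Rps29 (0.12). With 4 points per gene, and members chosen for their pattern, nearness is a description.

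**Figure D5:**
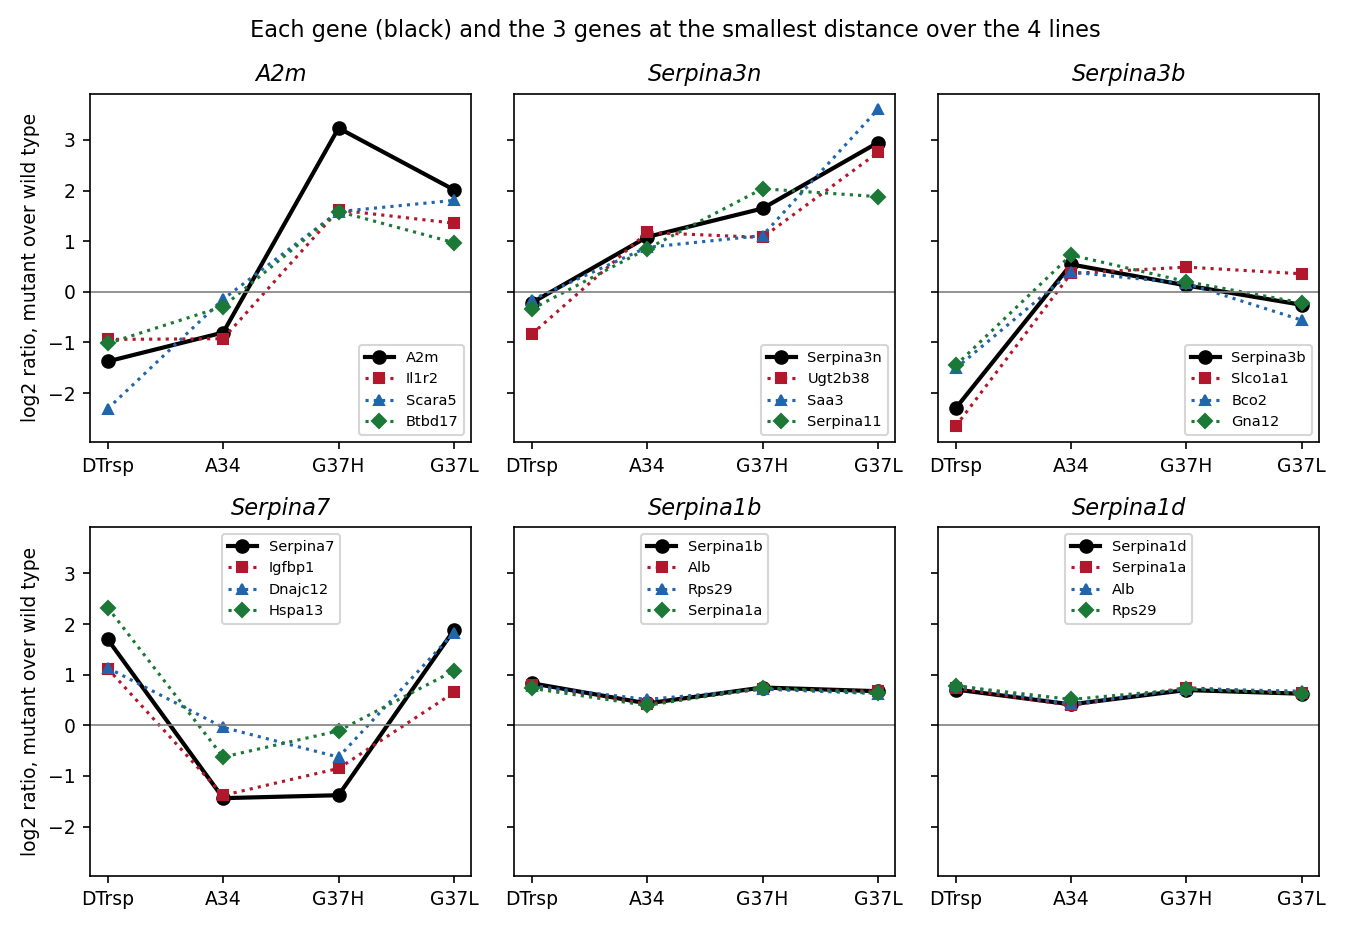
Log2 ratio of mutant over wild type (vertical axis) in the 4 lines (horizontal axis) for each of the 6 genes (black) and its 3 nearest genes by Euclidean distance (dotted). Serpina1b and Serpina1d overlie Alb, Rps29 and Serpina1a at distances of 0.05 to 0.12, while A2m stands above its nearest genes in G37H.

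Genes of the signalling routes known to act on liver inhibitor genes were mostly under 2-fold, as were most genes of the array. Of all 9285 genes, 3.27%, 1.4%, 2.78% and 2.51% were at least 2-fold higher in DTrsp, A34, G37H and G37L. The shares lower were 1.62%, 0.452%, 3.1% and 3.96%. With lists this short, nothing is read from the counts below. Interleukin-6 acts through STAT3 to raise acute phase genes, and growth hormone acts through STAT5 on sex-biased liver genes. Of 15 measured genes of interleukin-6 and STAT3 signalling, 0 were at least 2-fold higher in DTrsp, 0 in A34, 1 in G37H and 1 in G37L, and 0 were lower in each. Socs3, a feedback inhibitor that STAT3 induces, was at -0.31, 0.71, 0.81 and 1.25. Stat3 itself was at 0.36, 0.65, 0.08 and 0.89. The gene counted in G37H was the interleukin-1 receptor Il1r1, at -0.76, -0.28, 1.38 and 0.9998, the last just under 2-fold. Of 12 growth hormone and STAT5 genes, 1, 1, 2 and 0 were higher and 0, 1, 0 and 1 lower in DTrsp, A34, G37H and G37L. The repressor Bcl6 was at 2.10 and Socs2 at 1.12 in G37H, and Cish was at -1.06 in G37L. In A34 the binding protein Igfbp2 was at 1.27.

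Among 9 measured hepatocyte transcription factors, Hnf4a lay between 0.35 and 0.64 in all 4 lines and Cebpa between -0.47 and 0.96. Foxa3 was at 0.63 in DTrsp, -0.23 in A34, 0.74 in G37H and 1.13 in G37L. Onecut1 was at least 2-fold lower in DTrsp (-1.32), G37H (-1.09) and G37L (-1.07) and at -0.62 in A34. Markers of other cell types were also measured. The 11 measured Kupffer cell and macrophage markers had medians of -0.11 in DTrsp, 0.70 in A34, 0.58 in G37H and 0.72 in G37L. Of them, 1, 2, 2 and 3 were at least 2-fold higher and 0 lower. Over all genes, 3.27%, 1.4%, 2.78% and 2.51% were higher and 1.62%, 0.452%, 3.1% and 3.96% lower. Of the neutrophil markers, S100a8 was at 0.78, 0.54, 0.82 and 1.23 and S100a9 at -0.22, -0.17, 0.12 and 0.46. The 7 stellate cell and fibroblast markers had medians of -0.43, 0.33, -0.05 and 0.08. Their part in the ratios of the members was not tested. In bulk liver, fewer cells of a type and less RNA per cell cannot be told apart.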

How the data were processed

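Per the labels, Trizol RNA was copied into cDNA from oligo-dT and coupled to Cy3 (wild type) or Cy5 (mutant). The authors deposited log ratios, read here as log2, each labelled as the average over biological replicates. The sources used here do not state array normalization, background correction, dye swaps or the logarithm's base. As log10, the largest value would be a 78331-fold ratio, so log10 was set aside. No value was missing among 15478 probes, and 12984 were named through gene identifiers in the GRCm38.p6 gene table and 63 kept the annotation's symbol. The 110 probes with several genes and the 2321 not listed stayed unnamed. Probes of a gene were averaged, giving 9285 genes. A gene was counted at an absolute log2 ratio of 1 or more. No test was run. Counting and distances were tested on simulated data. Named genes are the 6 members, of each list up to 4 per line among its largest absolute values, and the 3 nearest genes, predicted transcripts skipped. The members and lists were chosen with earlier results of these data known. Alternatives were other thresholds, centrings, probe summaries, scaling and natural logs. Python 3.11.15, pandas 2.3.3 and Biopython 1.88 were used (global alignment). Promoter sequences are RefSeq's, found for 5 of the 6 genes.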

Additional observations from a re-analysis of the deposited data

Results flagged for a closer look

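Among the members and the serpin and inhibitor lists, 3 genes were at least 2-fold higher in 1 line and at least 2-fold lower in another. Over all genes, 75 of 9285 (0.808%) were. The genes searched were the 6 members and the 7, 8 and 22 measured genes of the 3 lists. Not all of them encode protease inhibitors, and Serpina7 does not. A2m and Serpina7 are members chosen in part for going opposite ways, so nothing is read from this count. A2m was at -1.38 in DTrsp, 3.24 in G37H and 2.02 in G37L. Serpina7 was at 1.70 in DTrsp, -1.44 in A34, -1.38 in G37H and 1.88 in G37L. Serpina12 was at 1.65 in A34 and -1.58 in G37H. The differences between lines were not tested, since each line has 1 averaged value.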

How the results depend on the processing

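Of 48 recomputed counts of members, 41 stayed within 1.5 times the reported count. At a 1.5-fold threshold 5 members were apart in DTrsp, 5 in G37H and 5 in G37L, against 3 each. At 3-fold, 0 were apart in A34, against 2, and 1 in G37H minus G37L, against 3. Read as natural logarithms, 5 were apart in DTrsp and 5 in G37H, against 3 each. No member at least 2-fold apart changed sign under any of these settings. Of 152 recomputed single values, 10 changed sign or side of 2-fold. Part of the recomputed results could not change. Each member had 1 or 2 probes, so a median over probes equals their mean. That fixed 24 values and 6 of the 48 counts. The annotation's own symbols name the same probes, which fixed 24 more values. Scaling to the spread of DTrsp leaves DTrsp itself as it was. The shares unchanged are therefore no measure of stability. A2m in A34 was at -1.17 with columns scaled to the spread of DTrsp and at -1.13 centred on hepatocyte markers. Serpina1d in G37L was at -0.04 with the latter centring. Over all genes, centring on column medians gave 172 higher and 259 lower genes in DTrsp, 106 and 57 in A34, 342 and 182 in G37H and 301 and 253 in G37L, against 304 and 150, 130 and 42, 258 and 288, and 233 and 368 as deposited. Centred on hepatocyte markers they were 55 and 1267, 35 and 162, 76 and 1369, and 49 and 2816, so the balance of directions over all genes depends on the centring. Read as natural logarithms, 1390, 593, 1363 and 1542 genes were apart in DTrsp, A34, G37H and G37L, against 454, 172, 546 and 601. At 1.5-fold they numbered 2094, 952, 1892 and 2116, and at 3-fold 76, 25, 87 and 120. Scaled to the spread of DTrsp, A34 had 602. No paired analysis was possible because each line has 1 averaged column, and for the same reason no animal could be left out.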

Other observations

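Proteases that plasma inhibitors act on, most of them clotting factors, had a higher median in A34 than in the other lines. Of 12 measured, 3 were at least 2-fold higher in A34, where 1.4% of all genes were, with plasminogen (Plg) and factor XII (F12) both at 1.22 and factor VII (F7) at 1.21. The Plg and F12 values are each means of 2 probes, and whether those probes were alike is not given here. The list median was -0.06 in DTrsp, 0.55 in A34, 0.07 in G37H and -0.09 in G37L. In DTrsp, Plg was at -0.75 and prothrombin (F2) at 0.85. There 1 gene of the list, Cela1, was at least 2-fold lower, at -1.26, where 1.62% of all genes were. Of 7 measured clearance receptors for plasma proteins and inhibitor complexes, 0 were at least 2-fold apart from wild type in any line. Of all 9285 genes, 454, 172, 546 and 601 were that far apart in DTrsp, A34, G37H and G37L. For Lrp1, 1 of the 7, the value is a mean over 77 probes, so a difference in some of them would not be seen. Differences between the lines were not tested.

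Some inhibitor genes had probes of opposite sign in DTrsp, while in A34 their probes were all above 0 and differed in size. The probes of Serpinf2, the plasmin inhibitor alpha-2-antiplasmin, were at -1.37 and 0.73 in DTrsp and at 2.41 and 0.74 in A34. Across the array, 22 probes were at least 2-fold lower in DTrsp and at least 2-fold higher in A34, and 4 of them belong to Mug1, Mug2 and Serpinf2. The share of inhibitor probes on the whole array was not counted, so no excess is read from these 4. Of the 11 genes that had such a probe and at least 1 other, 0 had the pattern in every probe. Of the 46 other probes of these genes, 17 were below 0 in DTrsp and 44 above 0 in A34.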
